A study of Homo sapiens and Mus musculus with 56 samples.

Results

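The genes described here are 45 interferon-stimulated genes, members of the transcriptional response to type I interferon, taken by name and looked up on a human and a mouse expression array. Of the 45, 43 were measured on the human arrays among 18417 genes and 38 on the mouse arrays among 19938 genes, and 36 were measured on both. STAT2 and OASL1 were not analysed here on the human arrays. On the mouse arrays, Isg15 and Gbp2 share their probe sets with other genes, and Ifi44, Ifi6, Ifit5, Oas1 and Oasl had no entry under those symbols, so none of these 7 was analysed there. The genes were listed by name and not by a cut-off on measured values, but with earlier results of these data known.

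The study used 5 lines of human glioblastoma, namely U118, U251M2, SF295, DBM2 and U87M2, and treated them for 7 days with V-4084, a small-molecule inhibitor of the MET receptor kinase, or with vehicle. Human arrays are labelled as glioblastoma cells treated in vitro with V-4084 from a 0.01 M stock in DMSO, or with DMSO alone, and the labels leave out the final concentration. Mouse arrays are labelled as tumours that grew from 500000 cells of a line under the flank skin of nude mice, which lack T cells, and that received V-4084 at 30 mg per kg or its vehicle, which held 0.05% Tween 80 and MC 400 at 0.5%. Each platform has 28 arrays, 14 with V-4084 and 14 with vehicle. A group of 1 line and 1 treatment has 3 arrays, except 2 for both SF295 groups on human arrays, for SF295 vehicle on mouse arrays and for U251M2 V-4084 on mouse arrays. The labels read here do not give the age of the mice, and they do not say whether repeats were separate cultures or animals, so p-values describe differences between arrays.

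Interferons bind receptors whose JAK kinases activate STAT proteins, and STAT2 with IRF9 forms the core of a factor that binds the interferon-stimulated response element (ISRE) in the promoters of these genes. Interferon gamma acts through a related STAT dimer on the gamma-activated sequence (GAS), as in the IRF1 promoter. The products sense viral RNA or DNA (RIGI, IFIH1, DHX58, ZBP1), block viral entry, translation or release (IFITM, IFIT, MX, OAS and EIF2AK2 proteins, BST2), attach or remove the ubiquitin-like ISG15 (UBA7, HERC6, TRIM25, USP18), or feed back on signalling (IRF7, PARP9 with DTX3L). In a xenograft the graft is human and its vessels, macrophages and connective tissue are of the mouse. A mouse array of such a tumour is meant to read the pathway in host cells. Binding of human RNA to its probes was not tested.

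Promoter windows from RefSeq (GRCh38.p14, 250 bases before to 50 after the gene start) were found for 34 of the human genes, which leaves 10 without one. The ISRE core, GAAA followed by any 2 bases and GAAA, searched on both strands, occurred in 21 of the 34 windows (61.8%), against 1255 of 35116 windows over all RefSeq genes (3.57%). The GAS pattern TTCNNNGAA, which is its own reverse complement, occurred in 9 of 34 (26.5%), against 2689 of 35116 (7.66%). Both patterns were present in 5 windows and neither in 9, and 14 windows held at least 2 ISRE cores. A match is a description of letters, and its use as a binding site was not tested. The stretch from 200 bases before to 10 after the start is printed 5′ to 3′ for 5 genes on which the results below turn, with ISRE cores and GAS patterns in capitals. IFITM1 and IFI6 rose with V-4084 on U87M2 human arrays, RIGI and IRF1 fell there, and BST2 had the widest range between lines on human arrays.
IFITM1, chr11:313840-314049, plus strand: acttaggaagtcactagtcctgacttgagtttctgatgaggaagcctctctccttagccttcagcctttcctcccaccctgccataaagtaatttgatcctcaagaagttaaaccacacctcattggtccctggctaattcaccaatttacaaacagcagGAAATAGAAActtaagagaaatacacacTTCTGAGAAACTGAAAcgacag
IFI6, chr1:27672183-27672392, minus strand: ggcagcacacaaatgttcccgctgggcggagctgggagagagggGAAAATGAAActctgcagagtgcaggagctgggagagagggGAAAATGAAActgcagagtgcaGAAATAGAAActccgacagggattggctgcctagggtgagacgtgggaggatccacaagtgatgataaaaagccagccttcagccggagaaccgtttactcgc
RIGI, chr9:32526187-32526396, minus strand: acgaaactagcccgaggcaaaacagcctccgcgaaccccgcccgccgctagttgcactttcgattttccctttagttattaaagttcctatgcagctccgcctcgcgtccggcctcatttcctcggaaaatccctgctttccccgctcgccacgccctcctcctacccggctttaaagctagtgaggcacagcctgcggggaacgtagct
IRF1, chr5:132490764-132490973, minus strand: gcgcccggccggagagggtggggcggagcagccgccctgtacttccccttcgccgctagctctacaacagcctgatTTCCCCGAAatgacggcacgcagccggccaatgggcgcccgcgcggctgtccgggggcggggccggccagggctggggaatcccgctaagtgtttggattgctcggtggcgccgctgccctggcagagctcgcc
BST2, chr19:17405621-17405830, minus strand: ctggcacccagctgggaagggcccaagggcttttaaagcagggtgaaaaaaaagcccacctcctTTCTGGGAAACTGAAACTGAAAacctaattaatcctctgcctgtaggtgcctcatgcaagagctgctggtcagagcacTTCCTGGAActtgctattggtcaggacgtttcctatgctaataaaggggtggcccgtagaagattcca
IFITM1 has 2 ISRE cores, the second of which overlaps a GAS pattern, and IFI6 has 3 ISRE cores and no GAS pattern. RIGI shows neither pattern in its window, and IRF1 shows 1 GAS pattern and no ISRE core. BST2 has 2 ISRE cores that overlap each other, and the first core also overlaps the first of its 2 GAS patterns. Of the members that changed on U87M2 human arrays and have a window, 2 of 3 that rose and 2 of 5 that fell hold an ISRE core.

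Several labels and arrays need to be stated before the results. For 3 human arrays the labels disagree: the title names DBM2, treated with V-4084, but SF295 is given as source and as cell line. They were placed with DBM2 by title. The mean of a list of 8 fibroblast genes was 7.554 to 7.697 on these 3 arrays. It was 7.575 to 7.685 on DBM2 vehicle arrays and 8.494 to 8.76 on SF295 vehicle arrays. Human arrays DBM2 V-4084 2, U251M2 V-4084 1 and SF295 V-4084 2 have a narrower spread of values than the others. Their standard deviations over all probe sets were 1.75, 1.90 and 1.90. The V-4084 results of these lines and the average are given with and without these 3 arrays. Array medians over all probe sets lay between 6.63 and 6.87 on human arrays and between 6.11 and 6.31 on mouse arrays. A list of skeletal muscle genes moved together on both platforms. Its mean was 6.94 on human array DBM2 V-4084 2, against 6.21 and 5.98 on DBM2 V-4084 1 and 3, and it was 10.08 on mouse array DBM2 V-4084 2, against 7.39 and 6.56 on mouse arrays 1 and 3. The array with the highest muscle mean had the same number on both platforms in 9 of 10 groups. Over the 27 same-numbered pairs, the deviations from the group means correlated for all 12 muscle genes measured on both (median r = 0.843, from 0.667 for MYH4 to 0.953 for ATP2A1), against a median of 0.0683 over 14334 shared genes. The macrophage list (median r = 0.0767, the same highest array in 6 of 10 groups) and the endothelial list (0.123, 5 of 10 groups) did not show this. The muscle values go against the in vitro label of the human arrays, and cultured cells and pieces of the same tumours cannot be told apart from the files. For 36 of the interferon-stimulated genes the same median was 0.114, with 24 of 36 positive, and binding of RNA of one species to the probes of the other was not tested.

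On mouse arrays, most of the set was high in tumours of SF295 and U118 and low in tumours of U87M2, DBM2 and U251M2. Ifi27 did not follow this order, with a mean of 7.36 in DBM2, beside 7.37 in SF295 and 7.26 in U118. Among vehicle arrays, all 38 measured genes differed between the lines at an adjusted p under 0.05, against 54.3% of all genes. The highest of the 5 line means was in SF295 for 15 of the 38 and in U118 for the other 23, and the lowest was in U87M2 for 11, in DBM2 for 14 and in U251M2 for 13. The mean of the 38 genes was 8.10 and 8.34 (log2) on the SF295 vehicle arrays and 7.998 to 8.61 on the U118 vehicle arrays. It was 7.29 to 7.51 in U87M2, 7.19 to 7.55 in DBM2 and 7.26 to 7.44 in U251M2, so neither high line overlapped any of the low lines. Since these are bulk samples, more cells of a type and more RNA per cell cannot be told apart.

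**Figure D1:**
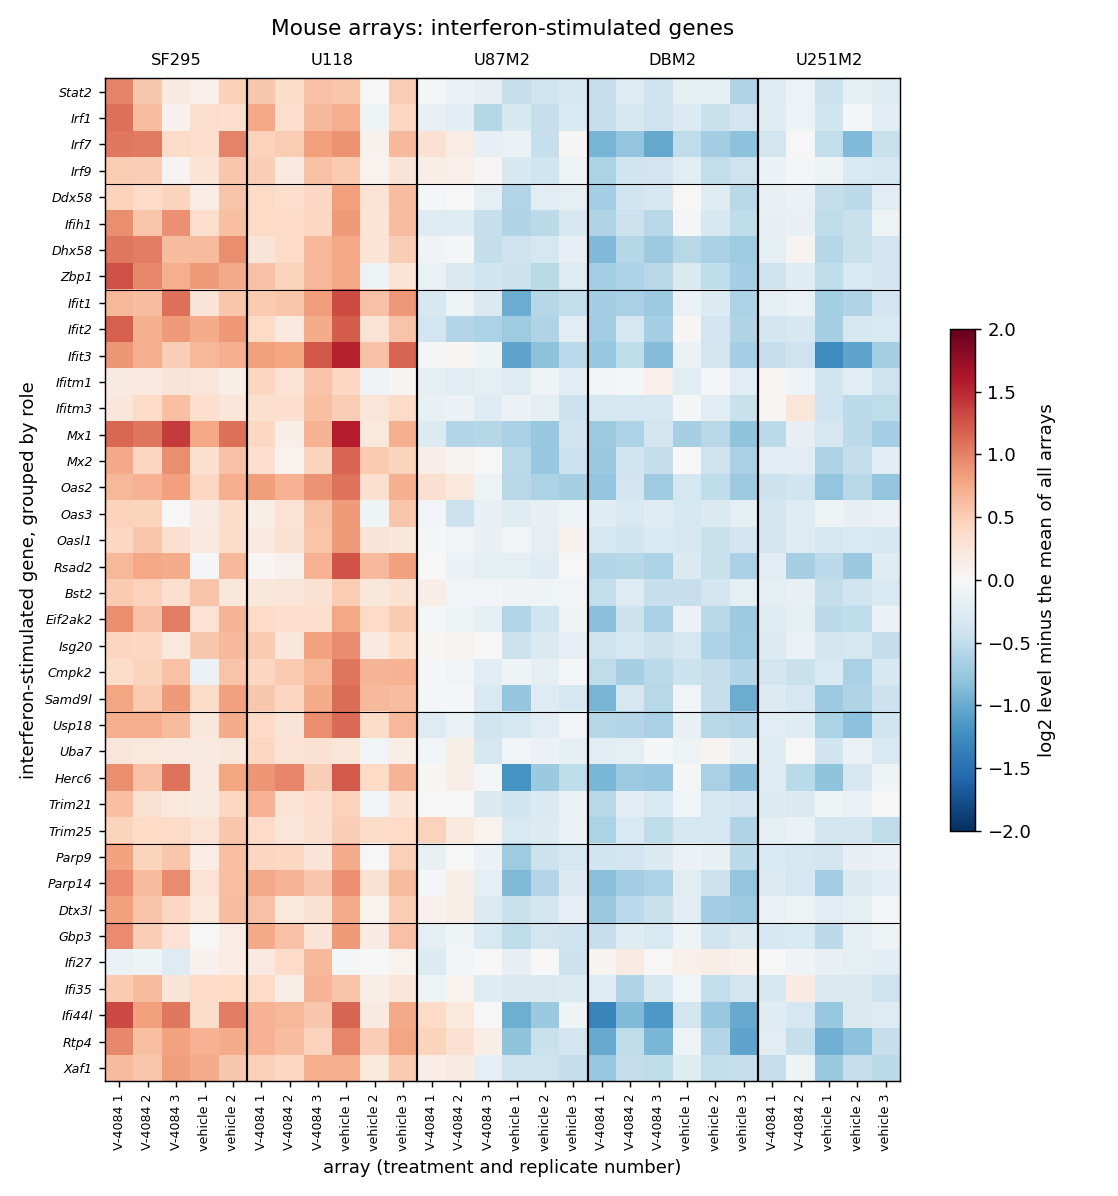
Log2 level of each of the 38 genes on each of the 28 mouse arrays, minus the mean of that gene over all arrays. Columns are arrays, grouped by line with V-4084 left of vehicle, and rows are grouped by role. The SF295 and U118 columns are mostly above the mean, and Ifi27 and Uba7 have the smallest ranges between lines (0.31 and 0.48).

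Ifit3, which encodes a protein that binds viral RNA together with Ifit1, had the widest range between lines. It read 9.60 and 9.67 on SF295 vehicle arrays and 10.48, 9.52 and 10.10 on U118 vehicle arrays. In the other lines it read 7.88, 8.11 and 8.40 in U87M2, 8.83, 8.57 and 8.27 in DBM2, and 7.68, 7.88 and 8.28 in U251M2. Every SF295 and U118 array was above every array of the other 3 lines. U118 stood 1.47 ± 0.15 (log2, SE) above the mean of the other 4 lines (limma, adjusted p = 2.42e-07), a ratio of 2.77. Mx1, a GTPase that traps viral nucleocapsids, read 7.07 and 7.40 in SF295 and 7.87, 6.51 and 7.00 in U118. The U87M2 arrays read 5.66, 5.55 and 5.91, the DBM2 arrays 5.63, 5.74 and 5.49, and the U251M2 arrays 5.96, 5.77 and 5.62. Again the groups did not overlap, and SF295 stood 1.18 ± 0.20 above the other lines (adjusted p = 0.00013). After Ifit3 and Mx1, the widest ranges of line means were those of Ifit1 (1.61), Herc6 (1.59), Rtp4 (1.496), Dhx58 (1.42), Oas2 (1.42), Ifi44l (1.40), Rsad2 (1.40) and Samd9l (1.38).

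Set against the mean of the other 4 lines, 33 of 38 genes were higher in SF295 and none was lower, with all 38 differences positive and a median of 0.58, while over all genes 14.3% were higher, 18.6% were lower and the median was -0.10. In U118, 36 of 38 were higher and none lower (median 0.71, all 38 positive), against 10.9% higher and 13.4% lower over all genes. The other lines showed the opposite: 24 of 38 were lower in U87M2 (9.71% of all genes), 23 in DBM2 (8.91%) and 27 in U251M2 (6.9%), and none was higher in any of them. These 5 comparisons share their vehicle arrays, so SF295 and U118 stand in the comparison group of each low line. All 4 transcription factors of the set were higher in both SF295 and U118. Stat2 stood 0.45 ± 0.15 above in SF295 and 0.54 ± 0.13 in U118 (adjusted p = 0.0239 and 0.00355), and Irf7, which amplifies interferon production, stood 0.90 ± 0.19 and 0.75 ± 0.16 above (adjusted p = 0.0012 and 0.00177). All 4 sensors were also higher in both lines, led in SF295 by Dhx58, a regulator of the RNA helicase sensors (1.00 ± 0.13, adjusted p = 5.91e-06), and Zbp1, a sensor of left-handed nucleic acid (1.05 ± 0.14, adjusted p = 9.72e-06).

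Of the 16 antiviral effectors, 13 were higher in SF295 and 16 in U118, where Ifit1 (1.21 ± 0.13, adjusted p = 3.61e-07) and Rsad2, the enzyme viperin (1.10 ± 0.14, adjusted p = 3.61e-06), followed Ifit3. All 5 genes of ISG15 conjugation and ubiquitin transfer were higher in SF295 and 4 in U118, and Parp9, Parp14 and Dtx3l were higher in both. In U87M2 the lowest were Ifit3 (-0.91 ± 0.15, adjusted p = 0.00022), Herc6, the main mouse ligase for Isg15 (-0.91 ± 0.18, adjusted p = 0.00112), and Ifit1 (-0.79 ± 0.13, adjusted p = 0.000175). DBM2 was lowest for Mx1 (-0.84 ± 0.17, adjusted p = 0.00102), Ifi44l (-0.80 ± 0.18, adjusted p = 0.00303) and Irf7 (-0.77 ± 0.16, adjusted p = 0.0014). U251M2 was lowest for Ifit3 (-1.14 ± 0.15, adjusted p = 1.64e-05), Rtp4, a chaperone for membrane receptors (-0.83 ± 0.15, adjusted p = 0.000475), and Usp18, which removes Isg15 (-0.76 ± 0.14, adjusted p = 0.00067). Single arrays decide how many genes were called: the count fell to 12 in SF295 without its vehicle array 2, to 10 in U87M2 without its vehicle array 1 and to 12 in DBM2 without its vehicle array 3, with at least 37 of 38 differences in the same direction each time.

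Macrophage markers moved with the set, while the endothelial and fibroblast lists did not follow the same order of lines. Of 15 mouse macrophage and monocyte markers, 13 were higher and 1 lower in SF295, led by Ctss (1.18, adjusted p = 2.52e-08), Itgam (1.66, adjusted p = 3.59e-08) and Adgre1 (1.08, adjusted p = 6.64e-08). In U118, 11 of 15 were higher, led by Adgre1 (1.09, adjusted p = 5.26e-09), Mrc1 (1.92, adjusted p = 1.29e-07) and Cd68 (0.87, adjusted p = 6.43e-06). The mean of the macrophage list lay between 9.92 and 9.98 on SF295 vehicle arrays and between 9.61 and 9.79 on U118 vehicle arrays, against 8.96 to 8.98 in U87M2, 8.54 to 8.75 in DBM2 and 8.65 to 8.87 in U251M2. Natural killer cell markers were higher for 3 of 9 in SF295 and 4 of 9 in U118, and plasmacytoid dendritic cell markers for none of 7 in either line. Skeletal muscle markers were higher for 9 of 13 in U118 and for none in SF295. The endothelial list mean was highest in U87M2 (8.67 to 8.78), against 8.162 to 8.164 in SF295 and 8.25 to 8.65 in U118. The fibroblast list mean was highest in DBM2 (9.52 to 9.82), against 8.51 to 9.19 in SF295 and 9.02 to 9.17 in U118. No marker of the 3 immune lists was among the 38 genes, and the part of cell composition in the result was not tested.

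**Figure D2:**
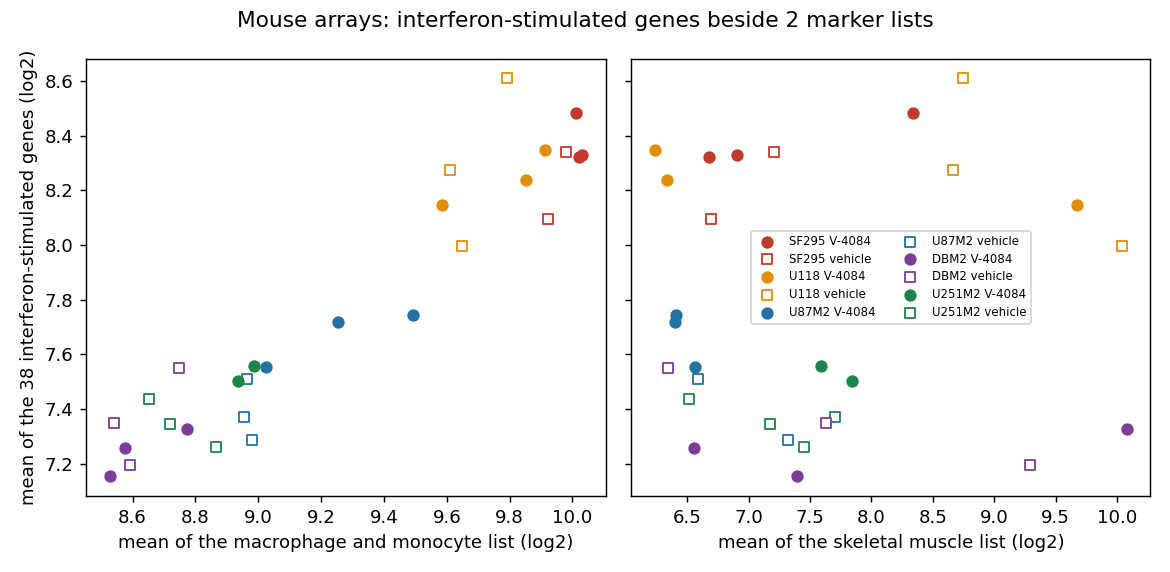
Mean log2 level of the 38 genes on each of the 28 mouse arrays, against the mean of the macrophage and monocyte list (left) and of the skeletal muscle list (right). Filled circles are V-4084 arrays and open squares vehicle arrays. The SF295 and U118 arrays lie at the top, with gene set means of 7.998 or more and macrophage means of 9.58 or more, while U118 arrays spread from 6.24 to 10.04 in the muscle list.

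The pathway around the set was also higher in these tumours. Of 19 measured genes of a list of interferon-stimulated genes of the mouse, 14 were higher in SF295 and 18 in U118, and none was lower in either. SF295 had Phf11d (0.87, adjusted p = 1.52e-05), Slfn1 (1.18, adjusted p = 0.000111) and Ifi202b (1.05, adjusted p = 0.000123) at the smallest p, and U118 had Ifi205 (1.93, adjusted p = 1.1e-06), Phf11d (0.87, adjusted p = 1.98e-06) and Ifi203 (0.97, adjusted p = 3.52e-06). Of 15 receptor and JAK-STAT genes, 9 were higher in SF295, among them both chains of the type I interferon receptor, Ifnar1 (0.76, adjusted p = 1.38e-06) and Ifnar2 (1.14, adjusted p = 2.3e-06). In U118, 6 were higher and 1, Socs3, a feedback inhibitor of cytokine receptors, was lower (-0.33, adjusted p = 0.00408). Of 16 nucleic acid sensors and adaptors, 14 were higher in SF295, led by Unc93b1 (1.07, adjusted p = 3.62e-07), the carrier of endosomal Toll-like receptors, and 5 in U118, led by Tlr8 (1.14, adjusted p = 4.78e-06). The 16 interferon ligand genes did not share this direction: none was higher and 4 were lower in SF295, and 1 was lower in U118. Their list mean was low, at 5.42 to 5.54 on SF295 and 5.50 to 5.63 on U118 vehicle arrays, below the median gene level of 6.49. Signal over background was not analysed, so a change in ligands could go unseen.

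On human arrays the lines did not fall into the same order. Of the 43 genes, 34 differed between the lines among vehicle arrays, against 58.4% of all genes. SF295 had the highest line mean for 18 of 43 and the lowest for none, while U118 had the lowest for 22. The mean of the 43 genes was 7.73 and 7.82 on SF295 vehicle arrays, 6.97 to 7.00 in U118, 7.22 to 7.29 in U87M2, 7.42 to 7.44 in DBM2 and 7.37 to 7.44 in U251M2. SF295 was thus high on both platforms, and U118 was the lowest line on human arrays and among the 2 highest on mouse arrays. The mean of the human macrophage list lay between 6.06 and 6.74 on human vehicle arrays, in or below the range of array medians over all probe sets. In SF295 it was 6.62 to 6.74. There, 4 of 13 macrophage genes were higher than in the other lines and 0 lower (30.8% called, against 23.8% of all genes). Their part in the result was not tested.

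**Figure D3:**
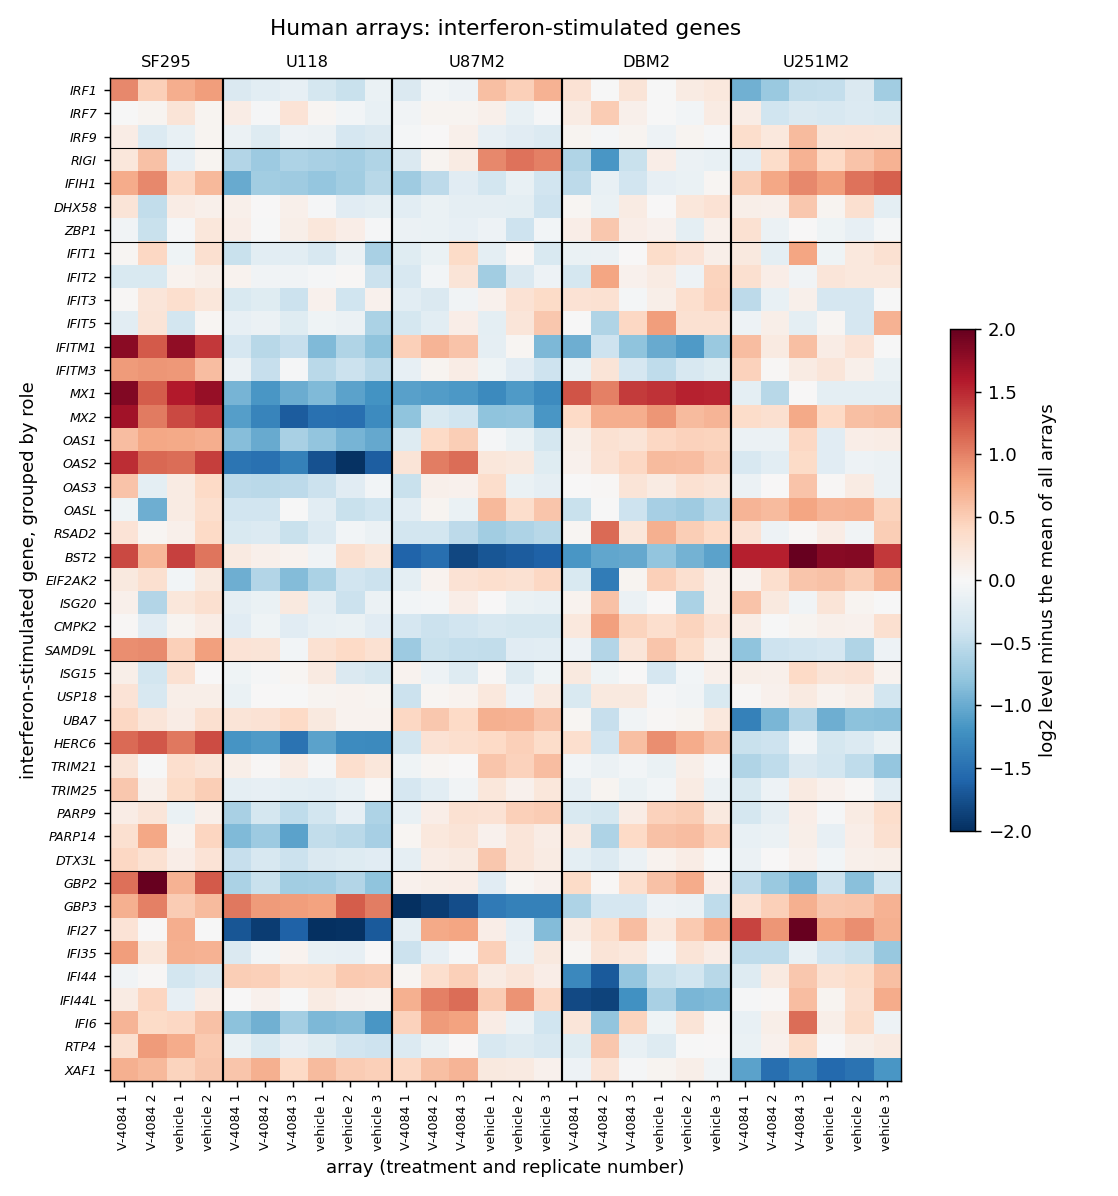
Log2 level of each of the 43 genes on each of the 28 human arrays, minus the mean of that gene over all arrays, with arrays grouped by line, V-4084 left of vehicle, and rows grouped by role. Lines differ gene by gene: MX1 is high in SF295 and DBM2, BST2 in U251M2 and SF295, and GBP3 is low in U87M2.

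BST2, which tethers budding virus to the cell surface, had the widest range. It read 8.35 and 8.06 in SF295, 6.91, 7.30 and 7.21 in U118, and 5.28, 5.33 and 5.37 in U87M2. DBM2 read 6.19, 6.04 and 5.91, and U251M2 read 8.81, 8.83 and 8.40. U251M2 stood 2.00 ± 0.15 above the mean of the other lines (adjusted p = 2.6e-11) and U87M2 2.19 ± 0.15 below it (difference -2.19, adjusted p = 4.16e-12). MX1 read 8.40 and 8.56 in SF295, 5.94, 5.76 and 5.62 in U118, and 5.55, 5.69 and 5.57 in U87M2. DBM2 read 8.28, 8.36 and 8.35, and U251M2 read 6.62, 6.63 and 6.62. MX1 was higher in SF295 (1.90 ± 0.13, adjusted p = 1.24e-11) and in DBM2 (1.71 ± 0.11, adjusted p = 1.92e-12) than in the other lines, and lower in U87M2 (-1.70 ± 0.11, adjusted p = 2.04e-12). The levels of U118 and U87M2 overlapped. OAS2, which makes the activator of RNase L, read 8.71 and 8.97 in SF295, 5.85, 5.62 and 5.95 in U118, and 7.81, 7.78 and 7.34 in U87M2. It read 8.22, 8.20 and 8.10 in DBM2 and 7.37, 7.49 and 7.48 in U251M2, and no other line reached down to U118 (-2.22 ± 0.15, adjusted p = 1.45e-12).

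The other wide ranges of human line means were those of MX2 (2.79), IFI27 (2.70), IFITM1 (2.56), GBP3 (2.39), HERC6 (2.38), XAF1 (1.94) and IFIH1 (1.71). Against the mean of the other 4 lines, 18 of 43 genes were higher in SF295 and 1 was lower, beside 23.8% of all genes called in either direction, 10.7% higher and 13.1% lower. IFITM1, a membrane protein that blocks viral entry, led with 2.08 ± 0.18 (adjusted p = 7.28e-10), followed by MX1 and MX2 (1.64 ± 0.16, adjusted p = 8.49e-09), and IFI44 was the gene that was lower (-0.48 ± 0.16, adjusted p = 0.0313). In U118, 22 were lower and 3 higher, beside 33.1% called, 16% higher and 17% lower. IFI27 (-2.23 ± 0.22, adjusted p = 2.67e-09), OAS2 and MX2 (-1.85 ± 0.14, adjusted p = 1.43e-11) were the lowest, and the 3 that were higher were GBP3 (1.13 ± 0.11, adjusted p = 2.54e-09), the pro-apoptotic XAF1 (0.72 ± 0.10, adjusted p = 2.39e-06) and IFI44 (0.51 ± 0.14, adjusted p = 0.00489). U118 human arrays were also higher for all 8 fibroblast genes and 7 of 12 skeletal muscle genes and lower for 5 of 9 glial genes, whose part in the result was not tested.

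U87M2, DBM2 and U251M2 were mixed on human arrays. In U87M2, 8 genes were higher and 11 lower (39% of all genes called). RIGI, the helicase that senses viral RNA, was highest (1.07 ± 0.14, adjusted p = 8.88e-07), then UBA7, the enzyme that activates ISG15 (0.76 ± 0.11, adjusted p = 3.97e-06), and IFI44L (0.69 ± 0.15, adjusted p = 0.00047), while BST2, GBP3 (-1.86 ± 0.11, adjusted p = 1.27e-13) and MX1 were lowest. In DBM2, 12 were higher and 7 lower (33.1% called). MX1, MX2 (0.84 ± 0.14, adjusted p = 1.84e-05) and OAS2 (0.74 ± 0.15, adjusted p = 0.000242) were highest there, and BST2 (-1.29 ± 0.15, adjusted p = 1.16e-07), IFITM1 (-1.12 ± 0.15, adjusted p = 1.34e-06) and IFI44L (-1.08 ± 0.15, adjusted p = 1.33e-06) lowest. In U251M2, 11 were higher and 11 lower (33.5% called). BST2, IFIH1, the sensor MDA5 (1.17 ± 0.12, adjusted p = 3.92e-09), and IFI27 (1.15 ± 0.22, adjusted p = 0.000112) were highest, and XAF1 (-1.70 ± 0.10, adjusted p = 2.05e-13), UBA7 (-1.16 ± 0.11, adjusted p = 3.61e-09) and the antibody receptor TRIM21 (-0.80 ± 0.09, adjusted p = 1.08e-07) lowest. Not called between lines were IRF7, DHX58, ZBP1, IFIT2, IFIT5, OAS3, ISG20, ISG15 and USP18, for which the line means differed by 0.25 (USP18) to 0.76 (IFIT5).

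**Figure D4:**
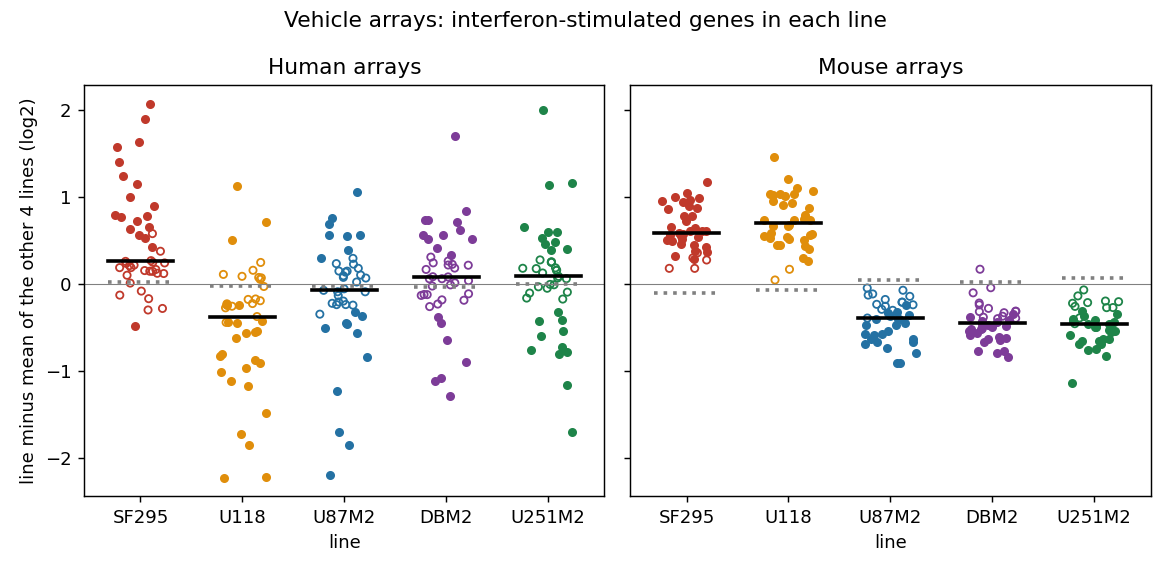
Difference of each line from the mean of the other 4 lines on vehicle arrays (log2), for 43 genes on human arrays (left) and 38 on mouse arrays (right). Each point is a gene, filled where called, the black bar is their median and the dotted grey bar the median of all genes. On mouse arrays the medians are 0.58 in SF295 and 0.71 in U118 and lie between -0.46 and -0.39 in the other lines, while on human arrays each line has genes in both directions.

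With V-4084, members of the set rose on the mouse arrays of 1 line. In U87M2 tumours, 8 of 38 genes were higher with V-4084 than with vehicle and none was lower (21.1%, against 3.72% of all genes, 2.49% higher and 1.22% lower). The differences were positive for 32 of 38, with a median of 0.24 against 0.00 (0.000667) over all genes. For 17 of 38 genes every V-4084 array was above every vehicle array, which held for 10.1% of all genes, and for no member was it the reverse. The mean of the 38 genes was 7.55 to 7.74 on V-4084 arrays and 7.29 to 7.51 on vehicle arrays. These treated tumours remained below the level of SF295 and U118 tumours.

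Oas2 had the smallest adjusted p of the 38. It read 8.78, 8.68 and 8.36 on V-4084 arrays, against 7.91, 7.84 and 7.80 on vehicle arrays, a difference of 0.76 ± 0.14 (adjusted p = 0.00264). Rtp4 read 9.05, 8.92 and 8.74 with V-4084, against 7.80, 8.16 and 8.23 with vehicle (0.84 ± 0.18, adjusted p = 0.00825). Herc6 had the largest difference. It read 7.46, 7.57 and 7.41 with V-4084, against 6.23, 6.70 and 6.92 with vehicle (0.87 ± 0.22, adjusted p = 0.0267). In none of these 3 genes did the groups overlap, and the vehicle arrays of Herc6 were wider apart than its V-4084 arrays. Ifit3 read 8.91, 8.97 and 8.85 with V-4084, against 7.88, 8.11 and 8.40 with vehicle (0.78 ± 0.19, adjusted p = 0.0176). Ifi44l, of unsettled function, read 9.49, 9.29 and 9.08 with V-4084, against 8.11, 8.34 and 8.99 with vehicle (0.80 ± 0.23, adjusted p = 0.0469). Mx2 read 6.04, 5.97 and 5.92 with V-4084, against 5.39, 5.17 and 5.50 with vehicle (0.63 ± 0.17, adjusted p = 0.0381). Also higher were Trim25, a ubiquitin ligase that activates the RIGI sensor (0.48 ± 0.10, adjusted p = 0.00711), and Xaf1 (0.48 ± 0.13, adjusted p = 0.0394), named because their human counterparts are described below.

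By role, the 8 genes were 3 of 16 antiviral effectors, 2 of 5 genes of ISG15 conjugation and ubiquitin transfer and 3 of 6 in the remaining group, and none was among the 4 transcription factors, the 4 sensors or the 3 genes of the Parp9 group. The count rests on single arrays: it was 1 without V-4084 array 1, 2 without vehicle array 1, 3 without V-4084 array 2 and 5 without vehicle array 2, while 30 to 35 of 38 differences stayed positive whichever of the 28 mouse arrays was left out. Beside it, 5 of 15 macrophage markers were higher with V-4084, among them Tyrobp (0.67, adjusted p = 0.00495), C1qa (0.64, adjusted p = 0.00906) and Adgre1 (0.45, adjusted p = 0.0182). The mean of the macrophage list was 9.03 to 9.49 on V-4084 arrays and 8.96 to 8.98 on vehicle arrays. All 13 skeletal muscle markers were lower in mean with V-4084 and none was called, with a list mean of 6.40 to 6.57 with V-4084 and 6.59 to 7.70 with vehicle. The part of either in the result was not tested. Of the receptors, Ifngr1 (0.91, adjusted p = 0.000176) and Ifngr2 (0.41, adjusted p = 0.0113), the chains of the interferon gamma receptor, were higher. None of 16 interferon ligand genes was called, with a low list mean of 5.67 to 5.82 on vehicle arrays. Outside the set, 1 of 26 other interferon-stimulated genes (Tnfsf10, 0.97, adjusted p = 0.00244) and 1 of 19 of the mouse list (Ifi203, 0.93, adjusted p = 0.000725) were higher, shares of 3.85% and 5.26% beside 3.72% of all genes.

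On U87M2 human arrays 10 of 43 genes changed with V-4084, 4 higher and 6 lower (23.3%, against 15% of all genes, 5.37% higher and 9.62% lower), with a median over the 43 of 0.02. For 6 members all V-4084 arrays lay above all vehicle arrays and for 10 below, against 18% and 21.6% of all genes. IFITM1 read 8.16, 8.36 and 8.25 with V-4084, against 7.51, 7.72 and 6.79 with vehicle, a difference of 0.92 ± 0.19 (adjusted p = 0.00119). IFI6, a mitochondrial protein that restrains apoptosis, read 10.06, 10.46 and 10.41 with V-4084, against 9.76, 9.49 and 9.22 with vehicle (0.83 ± 0.26, adjusted p = 0.0281). IFI6 was no longer called with the replicate number as a block (adjusted p = 0.0662). OAS2 read 7.85, 8.62 and 8.71 with V-4084, against 7.81, 7.78 and 7.34 with vehicle (0.75 ± 0.19, adjusted p = 0.00555). Groups did not overlap in any of the 3, but V-4084 array 1 of OAS2 stood only just above the vehicle arrays. XAF1 read 8.43, 8.62 and 8.69 with V-4084, against 8.21, 8.21 and 8.11 with vehicle (0.40 ± 0.13, adjusted p = 0.0336).

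RIGI was the gene that fell most. It read 7.39, 7.72 and 7.83 on V-4084 arrays, against 8.64, 8.77 and 8.68 on vehicle arrays, a difference of -1.05 ± 0.18 (adjusted p = 0.000139). IRF1, the transcription factor whose promoter carries the GAS pattern printed above, read 6.90, 7.13 and 7.10 with V-4084, against 7.80, 7.67 and 7.88 with vehicle (-0.74 ± 0.14, adjusted p = 0.000345). OASL, which enhances RIGI signalling, read 6.83, 7.10 and 6.90 with V-4084, against 7.69, 7.39 and 7.60 with vehicle (-0.62 ± 0.16, adjusted p = 0.0101). The groups were clear of each other in all 3. TRIM21 read 6.495, 6.62 and 6.59 with V-4084, against 7.14, 7.04 and 7.19 with vehicle (-0.55 ± 0.12, adjusted p = 0.00157). GBP3, a guanylate-binding GTPase, read 4.79, 4.98 and 5.10 with V-4084, against 5.46, 5.53 and 5.53 with vehicle (-0.55 ± 0.14, adjusted p = 0.00585). These GBP3 levels are low, beside a median gene level of 7.145. TRIM25 read 8.38, 8.51 and 8.65 with V-4084, against 8.95, 8.80 and 8.95 with vehicle (-0.39 ± 0.13, adjusted p = 0.0449), and it was no longer called after quantile normalization (adjusted p = 0.166). Of the 4 sensors of the set, RIGI alone was called. The count of 10 was 6, with 1 higher and 5 lower, when vehicle array 3 was left out, and 14 without the 3 narrow-range arrays, all of which belong to other lines.

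Beside the members, 5 of 17 nucleic acid sensors and adaptors changed on these human arrays, 4 of them lower, led by MYD88 (-0.51, adjusted p = 0.00299) and IKBKE (-0.53, adjusted p = 0.00318), the adaptor of Toll-like receptors and a kinase of interferon regulatory factors. Of 31 other interferon-stimulated genes, 3 were higher, led by C1S (1.01, adjusted p = 9.02e-05), and 5 lower, led by PML (-0.93, adjusted p = 0.000324) and APOL6 (-0.78, adjusted p = 0.00038). None of 16 ligand genes was called, with a list mean of 4.662 to 4.665 on vehicle arrays, below the median gene level of 7.145. IFNGR2 (-0.43, adjusted p = 0.00999) and SOCS3 (-0.30, adjusted p = 0.0463) were lower among 15 receptor and JAK-STAT genes. All 8 fibroblast genes were higher with V-4084, led by DCN (1.97, adjusted p = 3.73e-10), LUM (1.75, adjusted p = 5.04e-07) and COL3A1 (1.34, adjusted p = 1.08e-06). Their part in the result was not tested.

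Of the genes measured on both platforms, OAS2 and XAF1 were higher with V-4084 in U87M2 on both, by nearly the same amount for OAS2 (0.75 on human arrays and 0.76 on mouse arrays). The human call of OAS2 was lost without U87M2 vehicle array 3 (adjusted p = 0.0609) or V-4084 array 3 (0.0529). That of XAF1 was lost with the replicate number as a block (0.0732). It was also lost without any of U87M2 vehicle arrays 1, 2 and 3 or V-4084 arrays 2 and 3 (0.0615 to 0.129). TRIM25 was lower on human arrays (-0.39) and higher on mouse arrays (0.48). RIGI fell on human arrays, while its mouse counterpart Ddx58 had a difference of 0.25 and was not called. Ifit3 and Herc6 rose on mouse arrays, while human IFIT3 and HERC6 had differences of -0.44 and -0.33 and were not called. IFITM1, which rose on human arrays, had a mouse difference of -0.003 (adjusted p = 0.998). The platforms were not fitted together, so the difference between them was not tested.

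**Figure D5:**
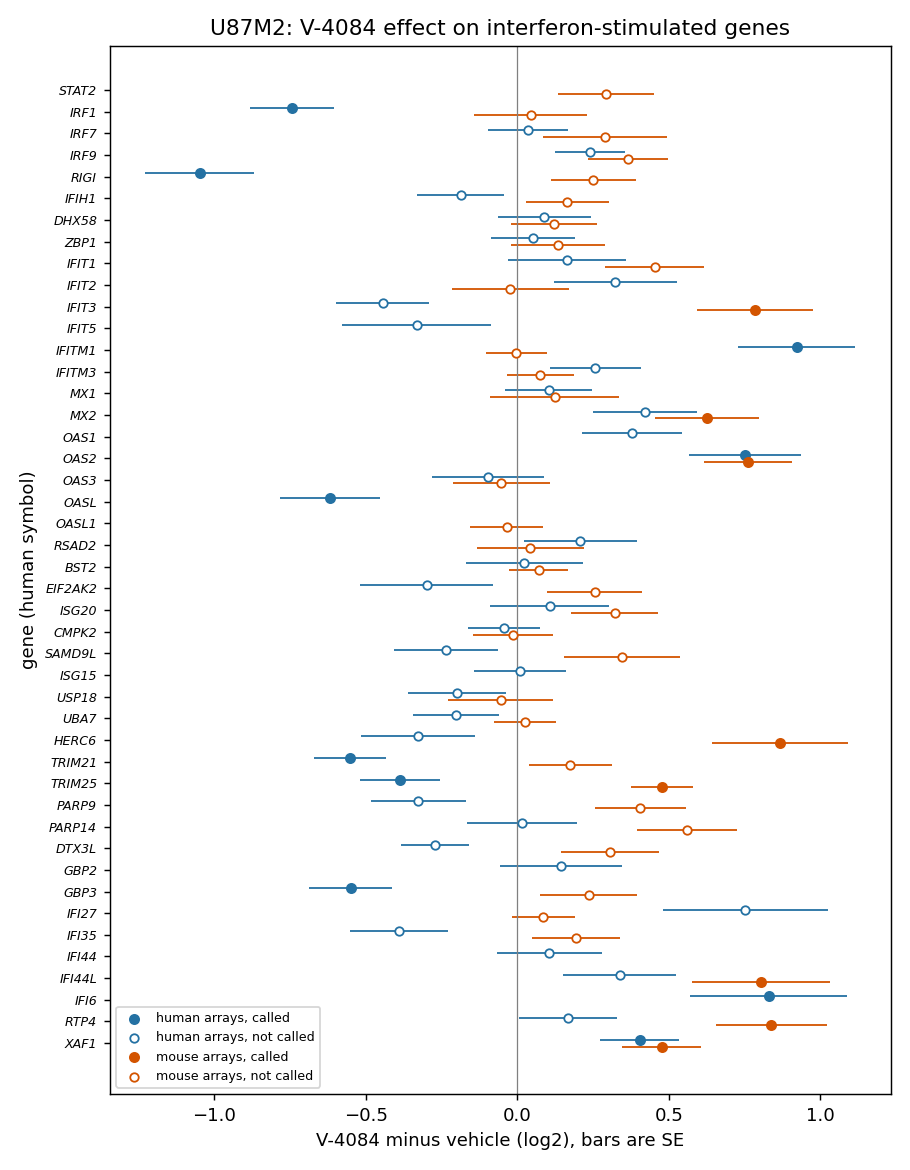
V-4084 minus vehicle (log2) in U87M2 for each gene on human arrays (blue) and mouse arrays (orange), with bars of 1 SE and filled points where called. Genes are named by the human symbol, so RIGI stands for mouse Ddx58. Human points run from -1.05 (RIGI) to 0.92 (IFITM1), and mouse points from -0.06 to 0.87 (Herc6).

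In the other lines no gene of the set was called on either platform. On mouse arrays this was 0 of 38 in SF295 and U118 (0.01% of all genes each), in DBM2 (0%) and in U251M2 (0.0401%), with 6, 6, 1 and 7 members at an unadjusted p under 0.05. The sign still leaned one way within lines: 34 of 38 differences were positive in SF295 (median 0.15) and in U251M2 (median 0.18), and 33 of 38 were negative in DBM2 (median -0.10), while U118 had 16 positive. With each array left out in turn, the number positive ran from 23 to 34 in SF295 and from 28 to 35 in U251M2. It ran from 4 to 13 in DBM2 and from 8 to 26 in U118. In U251M2, 15 of 38 had all V-4084 arrays above all vehicle arrays, against 11.1% of all genes. Some lists of host cell markers moved with it in U251M2, though none of these markers was called. Of 15 macrophage markers, 13 were positive, with list means of 8.94 to 8.99 with V-4084 and 8.65 to 8.87 with vehicle. So were 8 of 8 fibroblast markers (9.47 to 9.55 with V-4084 and 8.99 to 9.22 with vehicle) and 13 of 13 skeletal muscle markers. The plasmacytoid dendritic cell list was lower with V-4084 (6.85 to 6.89, against 6.94 to 6.98 with vehicle). The natural killer list overlapped (5.78 to 5.82 with V-4084 and 5.77 to 5.85 with vehicle). Their part in the result was not tested. Ifitm3, the main Ifitm protein against entry of enveloped virus, came closest to a call there, at 0.62 ± 0.12 (adjusted p = 0.0793), followed by Ifitm1 (0.32, adjusted p = 0.272) and Ifit3 (0.56, adjusted p = 0.294). The smallest p in SF295 belonged to Gbp3 (0.50, adjusted p = 0.722), Ifi27 (-0.27, adjusted p = 0.722) and Ifih1 (0.33, adjusted p = 0.736), and in U118 to Ifi27 (0.39, adjusted p = 0.335), Rsad2 (-0.64, adjusted p = 0.392) and Ifitm1 (0.29, adjusted p = 0.578). In DBM2 Ifit1 (-0.34), Ifi44l (-0.40) and Ifih1 (-0.24) had the smallest p, each with an adjusted p of 1.

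Averaged over the 5 lines, no mouse gene of the set was called with limma (0.0702% of all genes), 8 were at an unadjusted p under 0.05 and 34 of 38 were positive with a median of 0.10. Oas2 (0.25 ± 0.07, adjusted p = 0.173), Ifitm1 (0.16 ± 0.05, adjusted p = 0.224) and Ifitm3 (0.15 ± 0.05, adjusted p = 0.323) had the smallest p. The F test of a difference in the effect between the 5 lines called none of 38 (0.341% of all genes), with 14 at an unadjusted p under 0.05, so the rise in U87M2 tumours is not shown to differ from the other lines.

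On human arrays, 0 of 43 genes were called in SF295 (0% of all genes), U118 (0.755%, 0.109% higher and 0.646% lower), DBM2 (0%) and U251M2 (0%), with 5, 0, 11 and 1 at an unadjusted p under 0.05. In DBM2, 28 of 43 differences were negative (median -0.12), every V-4084 array lay below every vehicle array for 11 genes (7.37% of all genes) and above for 2 (9.88%), and IFI44 (-0.79 ± 0.17), IFI44L (-0.81 ± 0.19) and EIF2AK2, the kinase PKR (-0.85 ± 0.22), each had an adjusted p of 0.111. IFI44L read 6.81, 6.77 and 7.41 on DBM2 V-4084 arrays, against 7.98, 7.71 and 7.74 on vehicle arrays. Without the 3 narrow-range arrays, 32 of 43 DBM2 differences were negative, 0 were called, and IFI44 (-0.58), IFI44L (-0.70) and EIF2AK2 (-0.43) each had an adjusted p of 0.455. All V-4084 arrays then lay below all vehicle arrays for 14 genes (10.1% of all genes). Without V-4084 array 3, 9 members were called, all lower, but the narrow-range array is then 1 of the 2 V-4084 arrays left. The smallest p in SF295 belonged to OASL (-0.78, adjusted p = 0.377), GBP2 (0.69, adjusted p = 0.511) and ZBP1 (-0.37, adjusted p = 0.565), and without the 3 narrow-range arrays their differences were -0.33, 0.14 and -0.18, each with an adjusted p of 1. Leaving out either SF295 V-4084 array leaves 1, which is assumed to vary like the arrays of other groups. The 4 genes called without V-4084 array 1 thus rest on the narrow-range array alone. In U118 they belonged to IFITM3 (0.30, adjusted p = 0.508), OAS2 (0.35, adjusted p = 0.526) and PARP14 (-0.33, adjusted p = 0.533), and in U251M2 to IFI27 (0.64), IFIH1 (-0.29) and PARP9 (-0.30), each with an adjusted p of 0.721. Without the 3 narrow-range arrays these were 0.69, -0.16 and -0.19 (adjusted p = 0.9, 0.909 and 0.91). For no gene of the set did the U251M2 groups lie clear of each other, which held upwards for 6.27% and downwards for 6.99% of all genes.

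The human average over the 5 lines called 4 of 43 (9.3%, against 11.6% of all genes, 3.38% higher and 8.23% lower). IFITM1 (0.34 ± 0.09, adjusted p = 0.0174) and IFITM3 (0.22 ± 0.07, adjusted p = 0.0412) were higher with V-4084, and RIGI (-0.31 ± 0.08, adjusted p = 0.0197) and EIF2AK2 (-0.31 ± 0.10, adjusted p = 0.0479) were lower. Without the narrow-range arrays IFITM3 was no longer called (0.16, adjusted p = 0.0969), and after quantile normalization EIF2AK2 was not (-0.25, adjusted p = 0.092). Without the U87M2 line none was called, and the average of EIF2AK2 stayed at -0.32 (adjusted p = 0.216) while that of RIGI was -0.13 (adjusted p = 0.449). Without the DBM2 line RIGI was -0.22 (adjusted p = 0.111) and EIF2AK2 -0.18 (adjusted p = 0.12). The effect differed between the lines for 4 of 43 (9.3%, against 5.53% of all genes), which were RIGI (adjusted p = 0.00469), OASL (adjusted p = 0.00922), IRF1 (adjusted p = 0.0312) and IFI44L (adjusted p = 0.0353), and for none without the U87M2 line. IFI44L was also not called without the narrow-range arrays (adjusted p = 0.08) or without the DBM2 line (adjusted p = 0.355), nor IRF1 after quantile normalization (adjusted p = 0.0666). The difference of RIGI was -1.05 in U87M2 and 0.46 in SF295, where it read 7.91 and 8.26 with V-4084, against 7.51 and 7.72 with vehicle. Without the narrow-range arrays the SF295 difference was 0.29, from 1 V-4084 array.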

How the data were processed

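Expression was measured on 28 human and 28 mouse Affymetrix whole-transcript gene arrays. The authors deposited log2 probe-set intensities that were made with RMA and Partek, per the submitters' processing notes; no version and no genome build is named in the sources read here. Per the labels' protocols, 200 ng of total RNA was labelled per array. Values were used as deposited. Probe sets that name 1 gene were kept (19460 of 33297 human, 21789 of 35556 mouse), and where a gene had several, the brightest on average was taken. Human symbols are current RefSeq symbols.

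Each platform was fitted by itself with limma 3.58.1 (R 4.3.3), using 10 group means (18 residual degrees of freedom, eBayes). Two-sided p-values were adjusted over all genes of a contrast (Benjamini-Hochberg), and genes under 0.05 are called. An error after ± is limma's standard error (SE). Groups follow the titles of the labels. Arrays have no depth, and their number limits the precision. Signal over background was not analysed here. The fit was tested on simulated data.

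The genes, marker lists and tests were chosen with earlier results of these data known. In the V-4084 comparisons the text names up to 6 called members per direction (in single lines, those whose groups do not overlap) and, where fewer than 3 are called, the 3 smallest p; for vehicle levels, the 10 widest ranges and up to 3 members per direction and line; of other lists, up to 3 called genes. Members named otherwise were chosen after their values were seen. Alternatives were quantile normalization, the mean of probe sets, no genes below the 40th percentile of level, a trended variance, a replicate block, no narrow-range arrays, no DBM2 or U87M2 line, and each array left out.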

Additional observations from a re-analysis of the deposited data

Results flagged for a closer look

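On human arrays, the effect of V-4084 differed between the 5 lines by the F test of limma for RIGI (adjusted p = 0.00469), OASL (adjusted p = 0.00922), IRF1 (adjusted p = 0.0312) and IFI44L (adjusted p = 0.0353). IFI44L lost its call without the narrow-range arrays (adjusted p = 0.08), IRF1 after quantile normalization (adjusted p = 0.0666), and all 4 without the U87M2 line.

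For the genes below, 3 of them named above, every V-4084 array lay above every vehicle array in one line or platform and below in another. These differences were not tested one against one. Such separation was common with so few arrays. By line, it held upwards for 6.27% to 18% of all genes on human arrays and downwards for 6.99% to 21.6%. On mouse arrays it held for 5.03% to 11.1% and 2.41% to 22%. PARP9, DTX3L, SAMD9L, UBA7 and mouse Isg20 were also separated both ways and are not listed. Values are V-4084 minus vehicle (log2). Those of human SF295 and DBM2 include a narrow-range V-4084 array each. On human arrays, SF295 was above and DBM2 below for IFI44 (0.30 and -0.79), IFI44L (0.31 and -0.81) and EIF2AK2 (0.19 and -0.85). SF295 was above and U87M2 below for RIGI (0.46 and -1.05) and GBP3 (0.29 and -0.55). RIGI was also below in DBM2 (-0.70), and EIF2AK2 was also below in U87M2 (-0.30). DBM2 was above for OASL (0.36), against -0.78 in SF295 and -0.62 in U87M2, and for ZBP1 (0.27), against -0.37 in SF295. OAS2 was above in U118 (0.35) and U87M2 (0.75) and below in DBM2 (-0.32).

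On mouse arrays, Ifit1 was above in SF295 (0.39), U87M2 (0.45) and U251M2 (0.40) and below in DBM2 (-0.34). Ifi27 was above in U118 (0.39) and U251M2 (0.14) and below in SF295 (-0.27), and Mx2 was above in U87M2 (0.63) and below in U118 (-0.43). Between the platforms, U87M2 mouse arrays were above and U87M2 human arrays below for IFIT3 (0.78 and -0.44), HERC6 (0.87 and -0.33), TRIM25 (0.48 and -0.39), GBP3 (0.24 and -0.55) and DDX58, the mouse symbol of RIGI (0.25 and -1.05).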

How the results depend on the processing

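Values here are counts of the genes called. Without dim genes, 12 of the human genes were called in U87M2 vehicle arrays against the other lines. Without the U87M2 line, 0 were called in the human average and 0 for the human difference between lines. With the replicate number as a block, 2 were called in the human average, 2 for the human difference between lines and 5 in the mouse U87M2 effect, and no other count moved by over 1.5 times. The block also ended the difference between lines of OASL (adjusted p = 0.064) and IRF1 (adjusted p = 0.142) and the average of IFITM3 (adjusted p = 0.0753) and EIF2AK2 (adjusted p = 0.0571). On U87M2 human arrays it ended the calls of IFI6 (adjusted p = 0.0662), XAF1 (0.0732) and TRIM25 (0.105). On U87M2 mouse arrays it ended those of Herc6 (0.0522), Ifi44l (0.116) and Mx2 (0.0654). The lower IFI44 of SF295 human vehicle arrays was lost with the block (0.0543) and after quantile normalization (0.057). The deviations of same-numbered V-4084 and vehicle arrays correlated at r from -0.52 to 0.318. Groups of 2 or 3 arrays are too small for this to show whether the numbers pair them.

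Leaving out each array in turn gave these ranges. Human V-4084 effects gave 0 to 4 in SF295, 6 to 12 in U87M2, 0 to 9 in DBM2, 0 to 8 in the average, 2 to 9 for the difference between lines and 0 in U118 and U251M2. The human average was 0 without SF295 vehicle array 2, 8 without U251M2 V-4084 array 3, and 7 without SF295 V-4084 array 1 or DBM2 V-4084 array 3. Human vehicle levels gave 32 to 37 between lines, 13 to 19 in SF295, 21 to 28 in U118, 15 to 21 in U87M2, 15 to 19 in DBM2 and 17 to 23 in U251M2. Mouse V-4084 effects gave 1 to 9 in U87M2, 0 to 1 in U251M2 and for the difference between lines, and 0 elsewhere. Mouse vehicle levels gave 37 to 38 between lines, 12 to 36 in SF295, 28 to 36 in U118, 10 to 26 in U87M2, 12 to 33 in DBM2 and 19 to 29 in U251M2. For called genes named in the text, 2024 values with a direction kept direction and call, 120 kept the direction but lost the call and none reversed. Of F tests, which have no direction, 792 kept the call and 29 lost it. Genes called only under an alternative are not in these totals. The causes were not tested. With 2 or 3 arrays a group, precision is limited by their number.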
